A study of Homo sapiens with 8 samples.

Results

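Mucins are the heavily O-glycosylated proteins that coat epithelial surfaces. Membrane mucins (MUC1, MUC4, MUC13, MUC16 and MUC20 here) are anchored in the apical membrane, where their extracellular part forms a barrier and their intracellular tail takes part in signaling. Gel-forming mucins (MUC2, MUC5AC, MUC5B and MUC6) are secreted and polymerize into mucus. Several of them are known for altered expression in pancreatic ductal adenocarcinoma, among them MUC1, MUC4 and MUC5AC.

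These 9 genes were followed in 2 cell lines derived from pancreatic ductal adenocarcinoma, MIA PaCa-2 and Capan-1, the latter taken from a liver metastasis. In each line 2 one-color arrays held RNA of cells treated with an siRNA against HOXB7, a homeobox transcription factor, at 10 nM for 48 hours, and 2 held RNA of parental control cells. The members were chosen as all non-control probes that carry one of the 9 gene names, which gave 20 of the 34127 probes, and 9 of 27274 gene names. MUC2 and MUC4 had 4 probes each, MUC6 had 3, MUC1, MUC5AC and MUC16 had 2, and MUC13, MUC20 and MUC5B had 1.

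No array of cells given a scrambled siRNA was among the 8, so the siRNA contrast holds transfection and HOXB7 silencing together. Read from the array barcodes, and with slides numbered here, all MIA PaCa-2 arrays lay on slide 1 and all Capan-1 arrays on slide 2. By the same reading the siRNA arrays took positions 1 and 2 of each slide. The lines were also routinely grown in different media, RPMI for MIA PaCa-2 and IMDM for Capan-1. The methods state that cells for transfection were plated in RPMI, and the medium of the parental arrays is not stated. Medium may thus differ between the lines, between siRNA and parental Capan-1 cells, or both. Slide and cell line cannot be told apart, nor can array position and treatment. The methods state that transfections were done at least in duplicate, but the sources do not tie the duplicate arrays to separate cultures, so p-values measure the spread between these arrays, which may be technical.

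Levels are log2 intensities relative to the 75th percentile of the same array, so 0 is that percentile. A probe was taken as detected where the scanner software called it well above background, as it did for 67.5% to 73.0% of all probes per array. Differences were tested with limma over the probes that were detected throughout at least 1 of the groups in a contrast, and a probe was called at a Benjamini-Hochberg adjusted p under 0.05. Levels of different probes were not compared with each other, except where marker levels were summed. Bright probes weigh most in those sums.

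HOXB7 itself was measured first. Its mean level in MIA PaCa-2 was -4.46 ± 0.51 (SD, n = 2) in parental cells and the probe was detected on 0 of 2 siRNA arrays. Against the lowest signal detected on those siRNA arrays, that is at least 2.85-fold lower. The limma difference (adjusted p = 0.0129) rests on the undetected siRNA signals and does not test that bound. In Capan-1 HOXB7 went from -2.41 ± 0.10 to -5.03 ± 0.32 (SD, n = 2 each), a difference of -2.62 that missed the threshold in limma (adjusted p = 0.0892). Of the 8 epithelial markers listed, 6 were detected on all 4 MIA PaCa-2 arrays, while EPCAM and CDH1, defining epithelial adhesion genes, were detected on 0 of 4 MIA PaCa-2 arrays and on 4 of 4 Capan-1 arrays.

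The array's probes read different stretches of each transcript, and the stretches matter below. The MUC1 probes are shown because MUC1 was the only member called after the siRNA. Both lie on the minus strand of chromosome 1 in the hg18 build used by the files. The first reaches over 1075 genomic bases, from 153425276 to 153426350, so its 60 bases cross a splice junction, and the second lies 60 bases long at 153428599 to 153428658. An hg18 annotation of exons and UTRs was not used here.
MUC1 A_23_P137856: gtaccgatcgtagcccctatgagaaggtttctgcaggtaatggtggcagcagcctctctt
MUC1 A_33_P3332215: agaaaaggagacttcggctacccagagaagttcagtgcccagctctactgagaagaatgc

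The MUC4 probes are shown because they gave unlike values. One lies downstream at chr3:196959835-196959894, and the other 3 lie 31254 to 39340 bases upstream of it on the same minus strand, between 196991089 and 196999234. Capitals mark every 8-base word that all 3 upstream probes hold. Each of them has 40 of its 60 bases in such words, and the downstream probe has 0.
MUC4 A_24_P208825: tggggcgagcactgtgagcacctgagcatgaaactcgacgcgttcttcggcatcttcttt
MUC4 A_33_P3417281: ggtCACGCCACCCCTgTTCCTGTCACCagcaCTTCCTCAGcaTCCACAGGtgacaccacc
MUC4 A_24_P239176: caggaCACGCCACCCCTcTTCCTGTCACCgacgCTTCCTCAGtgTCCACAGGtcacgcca
MUC4 A_24_P239177: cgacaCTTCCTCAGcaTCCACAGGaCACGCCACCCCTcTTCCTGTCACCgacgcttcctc

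The last 2 of these overlap by 40 bases, so they are not independent readings. The repeated words are those of the long tandem-repeat domain for which MUC4 is known.

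No member probe shared a run of 20 bases with a probe of another gene name on the array. MUC20 is known to have a near-identical copy in the genome, so its signal may include that copy. The 4 gel-forming mucins lie side by side on chromosome 11, where their probes with coordinates span 234994 bases, and the MUC20 probe lies 9701 bases from the downstream MUC4 probe on chromosome 3.

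More mucin probes were detected in Capan-1 than in MIA PaCa-2. Of the 20 member probes, 19 were detected on both siRNA arrays of Capan-1 and 18 or 19 on its parental arrays, against 14 to 16 on the MIA PaCa-2 arrays. MUC13, MUC20 and MUC5B were detected on 4 of 4 Capan-1 arrays and on 0 of 4 MIA PaCa-2 arrays. The scanner software's laxer call, positive and significant over background, was made for MUC5B on 8 of 8 arrays and for MUC13 and MUC20 on 5 each. The MUC2 probe A_24_P84657 was detected on 0 of the 8 arrays and was not tested.

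**Figure D1:**
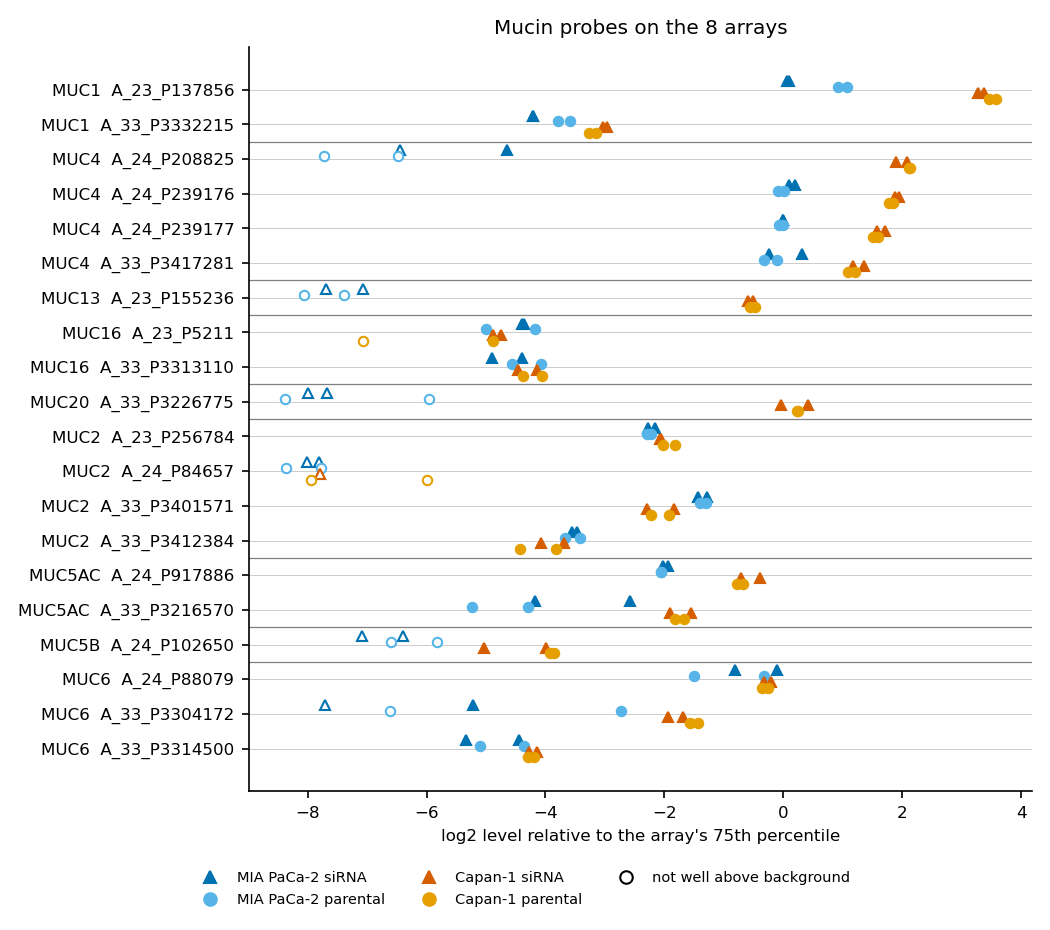
Level of each mucin probe (rows, grouped by gene) on each of the 8 arrays, on the x axis as log2 relative to the 75th percentile of that array. Triangles are siRNA arrays, circles parental arrays, blue MIA PaCa-2 and orange Capan-1, and open symbols were not well above background. MUC13, MUC20 and MUC5B have open symbols on all 4 MIA PaCa-2 arrays.

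After the siRNA in MIA PaCa-2, MUC1 fell and no other member was called. Probe A_23_P137856 stood at 0.06 and 0.10 after siRNA and at 1.08 and 0.93 in parental cells, with no overlap. The difference was -0.92 on the log2 scale (SE 0.09, 95% interval -1.15 to -0.69), or 1.89-fold lower (limma, adjusted p = 0.0191). This was 1 lower and 0 higher of 14 member probes tested, from 6 genes, where 2.72% of all 23715 probes tested were called in either direction and 1.37% were lower and 1.34% higher. An interval rule modelled on the study's methods, with limits taken from the spread between parental duplicates at like intensity, called the same probe and no other member, where it called 0.507% of all 23653 probes it tested. The median difference of the 14 was 0.04, beside 0.02 over all probes tested.

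The other MUC1 probe, A_33_P3332215, stood at -4.21 and -4.20 after siRNA and -3.79 and -3.59 in parental cells. Its groups did not overlap either, which held for 6 of the 14 member probes tested. The difference of -0.52 (SE 0.10) missed the threshold (limma, adjusted p = 0.0574). With normexp background correction that difference was 0.06.

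The MUC1 call rested on few arrays. It was lost without MIA PaCa-2 siRNA replicate 1 (limma, adjusted p = 0.0692), without MIA PaCa-2 parental replicate 1 (limma, adjusted p = 0.0564), without Capan-1 parental replicate 1 or 2 (limma, adjusted p = 0.0610 in both cases), and in a fit of the MIA PaCa-2 arrays alone (limma, adjusted p = 0.119). Over 20 alternatives the difference stayed between -1.13 and -0.80. An exact permutation test of 2 arrays against 2 cannot go below p = 0.33.

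**Figure D2:**
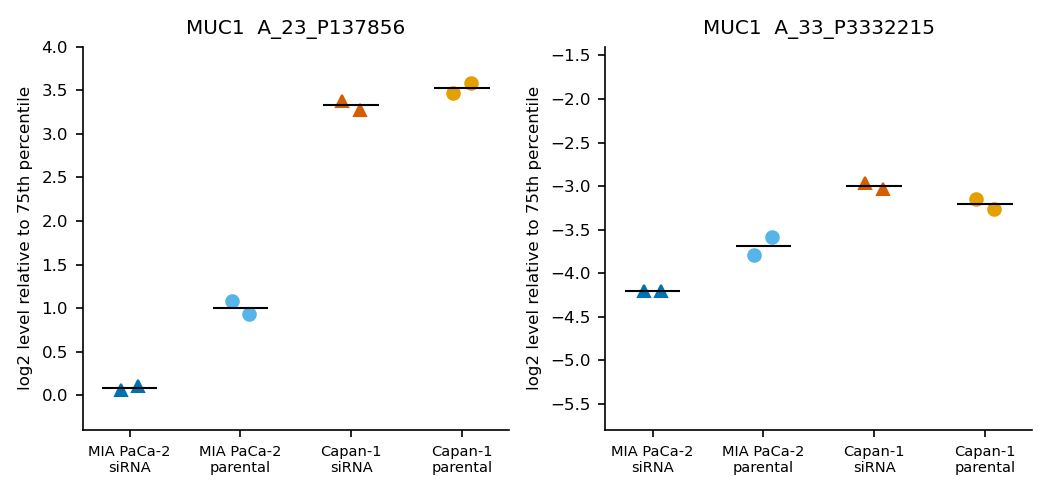
Level of both MUC1 probes on the 8 arrays (y axis, log2 relative to the 75th percentile of the array; both panels span equally many log2 units). Points are arrays and lines are group means of 2 arrays. In MIA PaCa-2 the siRNA arrays lie below the parental arrays for both probes, by 0.92 and 0.52 on average.

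ELF3, an epithelium-specific transcription factor on the list of epithelial markers, also fell in MIA PaCa-2. Its level was -0.89 and -0.68 after siRNA, against 0.25 and 0.03 in parental cells, a difference of -0.93 (SE 0.12; limma, adjusted p = 0.0260). It was 1 of 6 epithelial markers tested to be called, and the summed linear level of that list was 402 to 408 after siRNA and 417 to 452 in parental cells. The summed level of the 4 mesenchymal markers was 297 to 322 against 238 to 261, with 0 of 3 called. That sum mostly reads VIM, by far the brightest of them, at 8.31 and 8.20 after siRNA and 7.87 and 8.01 in parental cells. CD68, a lysosomal glycoprotein on the list of immune markers, rose by 0.70 (limma, adjusted p = 0.0362), with 1 of 5 of that list called and a summed level of 4.70 to 5.19 against 4.84 to 5.08. The part of these shifts in the MUC1 difference was not tested.

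The repeat-region probes of MUC4, an ERBB2-binding membrane mucin, differed by 0.19 (SE 0.09; limma, adjusted p = 0.269), 0.04 and 0.25 between siRNA and parental MIA PaCa-2 arrays, and none was called. MUC4's downstream probe was detected on 1 of 2 siRNA arrays (level -4.65) and on 0 of 2 parental arrays, so it was not tested. The probes of MUC16, which carries the CA125 antigen, differed by 0.21 and -0.33, with intervals of -1.43 to 1.84 and -0.93 to 0.27.

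Among the gel-forming mucins the widest difference was that of MUC5AC, a mucin of airway and gastric surface cells. Probe A_33_P3216570 was at -2.58 and -4.18 after siRNA and at -5.24 and -4.29 in parental cells, so both siRNA arrays were higher but far apart. The difference of 1.38 (SE 0.55) was not called (limma, adjusted p = 0.222), and the other MUC5AC probe differed by 0.08 with an interval of -0.23 to 0.38. For MUC2, the main intestinal mucin, the 3 detected probes differed by -0.01 to 0.05. MUC6, a mucin of gastric glands, differed by 0.45 and -0.16 at the 2 probes tested. Adjusted p over all uncalled member probes ran from 0.0574 to 0.980 in limma, and before adjustment 2 lower member probes and 1 higher were under 0.05.

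In Capan-1 no member was called after the siRNA. Of 19 member probes tested, from all 9 genes, 0 were called and 0 had an unadjusted p under 0.05 in limma, where 0.00428% of all 23376 probes tested were called. The interval rule also called 0 members, where it called 2.14% of all 23343 probes it tested. The lowest adjusted p among the members was 0.426. MUC1 A_23_P137856 stood at 3.38 and 3.28 after siRNA and 3.46 and 3.59 in parental cells, a difference of -0.20 with an interval of -0.43 to 0.03. The other MUC1 probe differed by 0.21 with an interval of -0.04 to 0.45.

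For MUC4's downstream probe the Capan-1 arrays lay at 2.09 and 1.89 after siRNA and 2.11 and 2.13 in parental cells, a difference of -0.13 with an interval of -1.66 to 1.40. MUC13, a membrane mucin of intestinal epithelium, differed by -0.03 (interval -0.70 to 0.64), and MUC20, a mucin first described in kidney, by -0.05 (interval -1.78 to 1.67). The 2 MUC5AC probes differed by 0.18 and 0.02. MUC5B, a mucin of submucosal glands, differed by -0.62 with an interval of -1.65 to 0.41, MUC6 A_33_P3304172 by -0.30 with an interval of -3.51 to 2.90, and MUC16 A_23_P5211 by 1.16 with an interval of -0.47 to 2.79. One Capan-1 parental array lay at -7.07 for that MUC16 probe, not detected, while the other lay at -4.88.

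**Figure D3:**
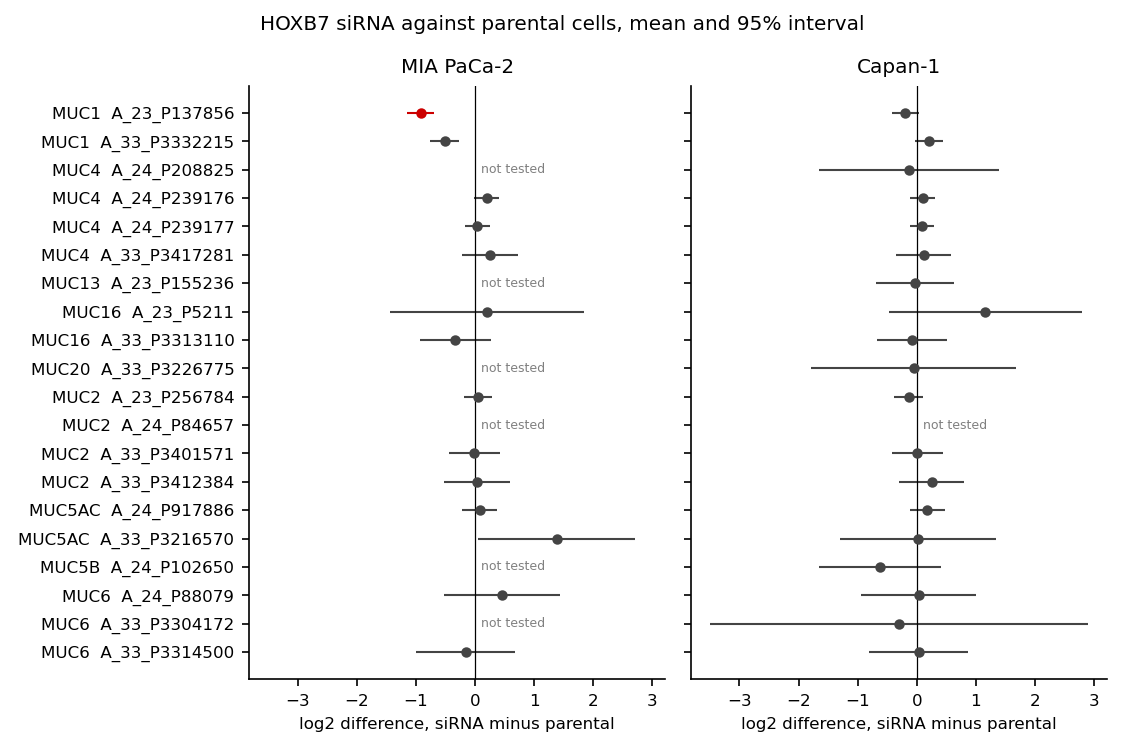
Difference between siRNA and parental arrays for each mucin probe (x axis, log2; points are limma estimates from 2 arrays per group and lines their 95% intervals), with 1 panel per cell line. The red point, MUC1 A_23_P137856 in MIA PaCa-2, is the only one past the adjusted threshold, and 6 probes went untested for MIA PaCa-2 cells, 1 for Capan-1 cells.

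The siRNA difference itself was compared between the lines. Of 19 member probes tested, 0 were called in limma, where 0.00783% of all probes tested were called (0.00391% lower and 0.00391% higher), and 2 had an unadjusted p under 0.05. Both were MUC1, whose probes each gave a difference of -0.72 between the effects (MIA PaCa-2 minus Capan-1), with adjusted p of 0.176 and 0.191 in limma. With normexp the second value was -0.15.

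RefSeq windows of the 300 bases around a transcription start (GRCh38.p14) were found for 5 of the 9 members, in 7 windows. MUC1 is shown because it was the member called after the siRNA. These are the 250 bases before the start of 1 of its 2 listed starts, at chr1:155192910-155193159 on the minus strand, with capitals for 4 copies of GGGCGG, 3 of them overlapping, and 1 of TATAAA.
MUC1 promoter: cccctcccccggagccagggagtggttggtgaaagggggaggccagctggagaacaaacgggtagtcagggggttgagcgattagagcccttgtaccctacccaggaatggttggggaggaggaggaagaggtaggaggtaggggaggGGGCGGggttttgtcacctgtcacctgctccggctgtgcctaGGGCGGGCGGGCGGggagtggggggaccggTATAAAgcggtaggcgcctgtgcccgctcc

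On either strand TATAAA, the core of a TATA box, was in 2 of the 7 member windows, both of MUC1, and in 11.5% of all 35116 windows. GGGCGG, a GC box, was in 5 of 7 and in 45.0% of all windows. The 2 MUC1 windows overlap, starting at 155192860 and 155192866, so the same copies of both motifs are counted in each. TAATTA, a core that homeodomain proteins can bind, was in 0 of 7 and in 4.8% of all windows. The MUC1 window printed here has its TATAAA 30 bases before the start.

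Between the parental lines the mucins differed far more than with the siRNA. Of 19 member probes tested, 12 were higher and 1 was lower in Capan-1, where 70.4% of all probes tested were called (31.1% higher and 39.3% lower). Of the 12, 4 were detected on no parental MIA PaCa-2 array and entered the test through Capan-1 alone. The median difference of the member probes was 1.37, beside -0.11 over all probes tested. The members' share of calls in either direction was near this background, while 63.2% were higher and 5.26% lower. By gene, 6 of 9 were higher, 0 lower and 1 both ways, where 31.9% of all gene names tested were higher and 40.2% lower. Several probes read the same gene, so sizes are given for each gene.

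The widest differences were those of 3 membrane mucin probes that were not detected in parental MIA PaCa-2 cells and so were tested through Capan-1 alone. MUC4's downstream probe stood at -6.48 and -7.73 in parental MIA PaCa-2 cells, against 2.11 and 2.13 in parental Capan-1 cells, which is at least 288-fold higher in Capan-1 (limma, adjusted p = 4.06e-05). MUC20 was at least 78.5-fold higher (limma, adjusted p = 0.000182), from -8.39 and -5.97 to 0.26 and 0.23. MUC13 was at least 46.4-fold higher (limma, adjusted p = 3.77e-06), from -8.06 and -7.38 to -0.55 and -0.48. Each of these bounds compares the Capan-1 mean with the lowest signal detected on the MIA PaCa-2 arrays, or with the dim probe's own signal where that was higher. The p-values belong to limma differences that rest on those undetected signals, so they do not test the bounds.

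Unlike these, the repeat-region probes of MUC4 were detected on 4 of 4 MIA PaCa-2 arrays. The parental means were -0.04 ± 0.07, -0.04 ± 0.04 and -0.22 ± 0.15 for MIA PaCa-2, against 1.81 ± 0.05, 1.55 ± 0.07 and 1.15 ± 0.08 for Capan-1 (SD, n = 2 each). They differed by 1.85, 1.59 and 1.37, that is 2.58-fold to 3.62-fold higher in Capan-1 (limma, adjusted p from 8.57e-06 to 0.00106). Within MUC4 the difference between the lines thus ran from 2.58-fold at 1 probe to at least 288-fold at another.

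**Figure D4:**
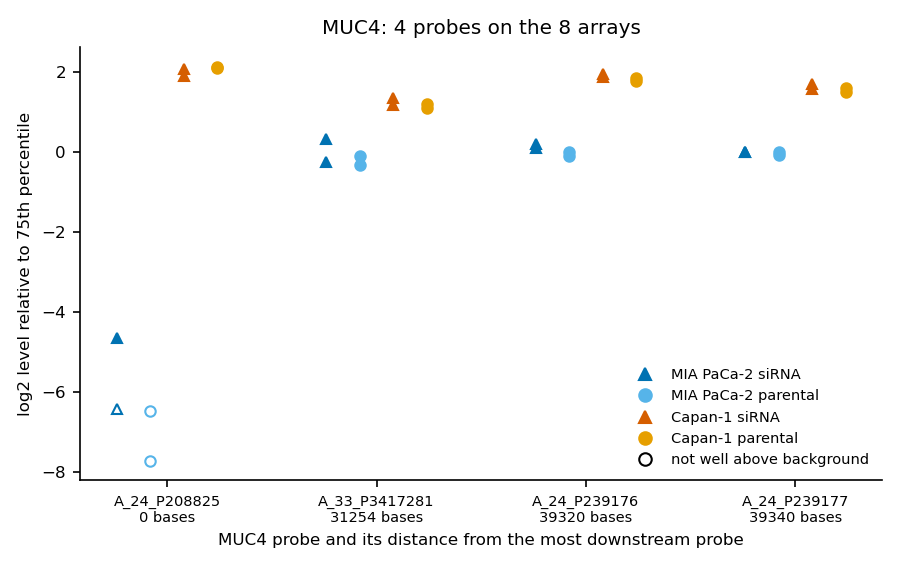
Level of the 4 MUC4 probes on the 8 arrays (y axis, log2 relative to the 75th percentile of the array), ordered on the x axis by their genomic distance from the most downstream probe; open symbols were not well above background. The downstream probe is dim on the MIA PaCa-2 arrays, with 3 of 4 open symbols, while the 3 upstream probes are detected on every array.

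MUC1 was higher in Capan-1 at both probes. A_23_P137856 had a parental mean of 3.52 ± 0.09 in Capan-1, against 1.00 ± 0.10 for MIA PaCa-2 (SD, n = 2 each), a difference of 2.52 (SE 0.10; limma, adjusted p = 3.51e-06). A_33_P3332215 differed by 0.48 (limma, adjusted p = 0.00562), a call lost with normexp. MUC16 was not called at either probe, with differences of -1.39 and 0.09 and groups that overlapped. Probe A_23_P5211 was called lower without Capan-1 parental replicate 2 (limma, adjusted p = 0.00229), but the array then left for Capan-1 is the one on which it was not detected, so no size is given.

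Of the gel-forming mucins, MUC5AC was higher in Capan-1 at both probes. Probe A_24_P917886 went from -2.06 and -2.06 to -0.68 and -0.78, a difference of 1.33 (SE 0.13; limma, adjusted p = 0.000165), and A_33_P3216570 differed by 3.01 (SE 0.55; limma, adjusted p = 0.00322). MUC5B, tested through Capan-1 alone, was at least 4.42-fold higher, although normexp gave a difference of 0.25 and no call. Its limma difference (adjusted p = 0.00335) rests on undetected MIA PaCa-2 signals, so that p-value does not test the bound.

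The MUC2 probes did not move together. A_23_P256784 was higher in Capan-1 by 0.33 (limma, adjusted p = 0.0236) and A_33_P3401571 was lower, with a difference of -0.74 (limma, adjusted p = 0.0109), while A_33_P3412384 differed by -0.58 (limma, adjusted p = 0.0612). A_33_P3412384 was called with quantile normalization (limma, adjusted p = 0.0453), with probes detected on all 8 arrays (limma, adjusted p = 0.0458) and without Capan-1 parental replicate 2 (difference -0.89; limma, adjusted p = 0.0157). The call of A_23_P256784 was lost in 8 of 20 alternatives. Among these were the fits without either MIA PaCa-2 parental array or without Capan-1 parental replicate 1. The call of A_33_P3401571 was lost in 3 of 20 alternatives, among them without MIA PaCa-2 parental replicate 1 or Capan-1 parental replicate 2.

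No MUC6 probe was called between the parental lines with the processing used here. Probe A_33_P3304172 was at -1.57 and -1.44 in Capan-1, but at -2.73 and, not detected, -6.62 on the MIA PaCa-2 arrays, and its difference of 3.17 had an SE of 1.33 (limma, adjusted p = 0.0745). It was called with normexp (difference 1.04; limma, adjusted p = 3.61e-05), without scaling, with spike-in scaling, with the replicate block and with an intensity trend (limma, adjusted p from 0.0383 to 0.0433 over these 4). It was also called without MIA PaCa-2 parental replicate 1 (limma, adjusted p = 0.00779), where the remaining MIA PaCa-2 array is the undetected one, so no size is given. The other MUC6 probes differed by 0.61 and 0.49. Probe A_24_P88079 was called without MIA PaCa-2 parental replicate 2 (difference 1.20; limma, adjusted p = 0.0199).

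Between the lines after siRNA, again 12 member probes were higher and 1 was lower of 19 tested, where 40.2% of all probes tested were lower and 30.2% higher in Capan-1 by limma. Of the 12, 3 were detected on 0 of 2 MIA PaCa-2 siRNA arrays and 2 on 1 of 2. MUC20 was at least 71.3-fold and MUC13 at least 42.9-fold higher. MUC1 A_23_P137856 differed by 3.24 and A_33_P3332215 by 1.21. MUC6 A_33_P3304172 was called higher (limma, adjusted p = 0.0206), with levels of -1.69 and -1.93 in Capan-1 against -5.22 and, not detected, -7.70 in MIA PaCa-2. This call was lost without MIA PaCa-2 siRNA replicate 2 (limma, adjusted p = 0.107) or without either Capan-1 siRNA array (limma, adjusted p = 0.0764 and 0.0678). MUC5AC A_33_P3216570 differed by 1.66 (limma, adjusted p = 0.0354), a call lost without MIA PaCa-2 siRNA replicate 2, without either Capan-1 siRNA array or without either Capan-1 parental array (limma, adjusted p from 0.0564 to 0.133). MUC2 A_33_P3401571 was the lower probe, with a difference of -0.71, lost without MIA PaCa-2 siRNA replicate 1 (limma, adjusted p = 0.0635) or Capan-1 siRNA replicate 2 (limma, adjusted p = 0.0530). Of the uncalled probes, MUC16 A_23_P5211 was called with only the groups compared (difference -0.44; limma, adjusted p = 0.0181) and MUC6 A_33_P3314500 without MIA PaCa-2 siRNA replicate 2 (difference 1.13; limma, adjusted p = 0.0273).

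**Figure D5:**
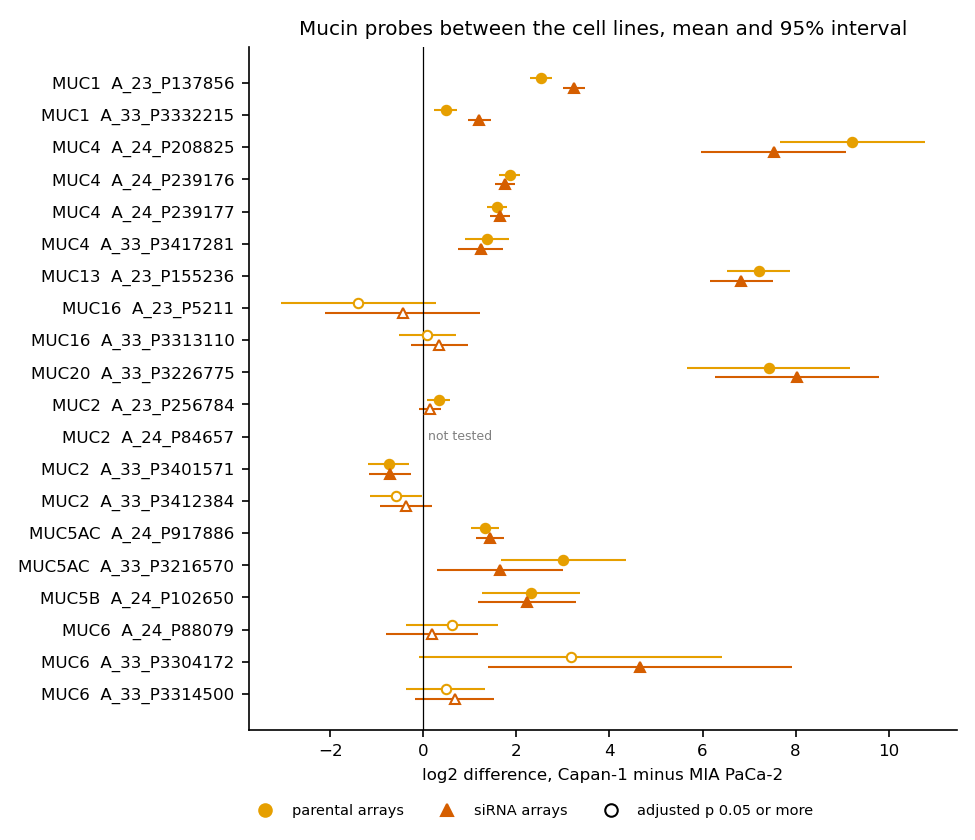
Difference between Capan-1 and MIA PaCa-2 for each mucin probe (x axis, log2, fitted by limma with 95% intervals) on parental arrays (circles) and siRNA arrays (triangles); open symbols did not pass the adjusted threshold. Values of MUC4 A_24_P208825, MUC13, MUC20 and MUC5B rest on MIA PaCa-2 signals that were mostly not well above background, so their sizes are given in the text as bounds where both arrays were undetected.

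Other genes of mucus production were read from lists, in which a gene counts as called where at least 1 of its probes was. By that count 73.5% of all gene names tested were called between the parental lines (31.9% higher and 40.2% lower in Capan-1, the rest both ways at different probes). With the siRNA it was 3.23% of gene names for MIA PaCa-2 cells, against 0.00529% for Capan-1 cells. Of 14 tested companions of mucus secretion and goblet-cell factors, 13 were higher and 1 was lower in parental Capan-1, with a median difference of 4.68 beside -0.11 over all probes. AGR2, a disulfide isomerase of mucin folding, was higher by 10.67 (limma, adjusted p = 1.17e-07), AGR3 by at least 263-fold, and a probe of the trefoil peptide TFF3 by at least 299-fold. CREB3L1, a transcription factor of the secretory pathway, was lower, with a difference of -0.76 (limma, adjusted p = 0.00336). With the siRNA none was called, of 13 tested for MIA PaCa-2 cells and 14 for Capan-1 cells.

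Of 24 tested enzymes of mucin O-glycosylation, 17 were higher and 5 lower in parental Capan-1, with a median difference of 2.82. Of the 27 enzymes on the array, 12 were detected on no MIA PaCa-2 array and 4 on no Capan-1 array, so such genes could be tested through 1 line alone. GALNT14, which starts O-glycan chains, was at least 840-fold higher, GCNT3, which makes core branches, at least 422-fold and the fucosyltransferase FUT3 at least 320-fold. ST6GALNAC2, GALNT11 and C1GALT1C1, the chaperone of the core 1 enzyme, were lower, with differences of -2.20, -2.06 and -2.05. With the siRNA, GALNT7 was the only one of 15 called in MIA PaCa-2, where it rose by 0.56 (SE 0.08; limma, adjusted p = 0.0336). None of 23 was called in Capan-1.

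Of 10 partners and sheddases of membrane mucins, which include receptors, a galectin, beta-catenin and mesothelin, 7 were higher and 3 lower in parental Capan-1. Their median difference was 1.64. MET was higher by 3.62 and ADAM17, a sheddase of MUC1, was lower, with a difference of -1.34 (limma, adjusted p = 9.44e-05). Of 6 tested other mucins and mucin-type glycoproteins, 2 were higher (OVGP1, detected on 2 of 4 MIA PaCa-2 arrays, and MCAM, detected on 1 of 4) and 4 lower. Among the lower were EMCN, at least 28.6-fold, MUC12, at least 5.01-fold at its tested probe, and MUC19, at least 4.32-fold. The probes behind these bounds were detected on 0 of 4 Capan-1 arrays and were tested through MIA PaCa-2 alone. Another MUC12 probe had some detection in Capan-1 but was not tested. Neither list had a call with the siRNA in either line.

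Markers of cell type also differed between the lines. Epithelial markers were higher in Capan-1 for 8 of 8 genes at 1 or more probes. Their summed levels, mostly of keratins, were 1368 to 1442 in parental Capan-1 against 417 to 452 in parental MIA PaCa-2. Of the mesenchymal markers 2 were lower in parental Capan-1 (VIM and ZEB1) and 2 higher (CDH2 and FN1). ZEB1, a repressor of epithelial genes, was lower there at both probes. It was at least 35.2-fold lower at A_33_P3640690. At A_33_P3374723, which was detected on all 8 arrays, its difference was -4.91. CDH2 was higher there at both probes, by at least 47.1-fold at A_23_P38732. At its other probe, A_33_P3214159, also detected on all 8 arrays, the CDH2 difference was 4.46. FN1 was at least 1.95-fold higher. KRT18, a simple-epithelium keratin, differed by 0.52 at its called probe and 0.21 at the other. Of 4 fibroblast markers tested 2 were lower and 1 higher, of 5 immune markers 2 were lower and 2 higher, of 2 endothelial markers 1 was lower and 1 higher, and of 4 acinar and islet markers 1 was lower and 2 higher. None of these marker lists had a call in Capan-1 with the siRNA, and in MIA PaCa-2 the fibroblast, endothelial and acinar lists had none. Their part in the mucin differences was not tested.

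The genes whose level over the 8 arrays was closest to a mucin probe were found by the root mean square difference among 20288 to 20290 other probes well above background throughout. For MUC1 A_23_P137856 these were TNFSF13 (0.103), LIMK2 (0.144) and CPNE1 (0.148), and for MUC5AC A_33_P3216570 they were POU5F1 (0.275), AF359419 (0.351) and SPDEF (0.372). For MUC5AC A_24_P917886 they were ZDHHC7, GFRA1 and VPS18, at 0.0707 to 0.0743. Over the 13 mucin probes so compared, 25 of the 39 genes named were named again with quantile-normalized values.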

How the data were processed

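RNA of 8 samples, 2 per group, was measured on one-color Agilent arrays. Per the file headers and the submitters' processing notes, Agilent Feature Extraction 9.5.3 gave the deposited intensity of each spot, background-subtracted and detrended within the array. The authors also deposited a table of log2 values for non-control spots. It matched the log2 of those intensities, so it carries no normalization from array to array. Groups came from the sample titles.

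Here log2 intensities of unflagged spots were averaged per probe, and the array's 75th percentile over gene probes was taken off. A group-means model was fitted in limma 3.58.1 (R 4.3.3) to all 8 arrays, so all groups share 1 estimate of spread. Tests were limited to probes called well above background in a whole group of the contrast, and p-values were adjusted over all probes tested. Where a group was undetected, the fold is a bound. The number of arrays limits the precision. The fit was tested on simulated data.

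The mucin genes, the gene lists and the tests were chosen with earlier results of these data known. Named genes were all members, HOXB7, list genes called in a siRNA contrast, at most 3 each way per list between the lines, and the 3 nearest genes by root mean square difference per mucin probe. Probe sequences came from the deposited scans, and promoter windows from RefSeq (GRCh38.p14). The MUC5AC probe sequences are not reported here. Alternatives covered background correction, scaling, filters, the replicate block and each array left out. An interval rule modelled on the study's methods (99% limits from the parental duplicates) was run per probe for the siRNA contrasts. Its window of 500 probes and the matching of same-numbered replicates were chosen here, and the methods' criteria on several probes per gene were left out.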

Additional observations from a re-analysis of the deposited data

How the results depend on the processing

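In MIA PaCa-2 the count of mucin probes lower after siRNA, 1 as reported, was 2 with quantile normalization or with probes detected on all 8 arrays, 0 without scaling, with spike-in scaling, without a filter on dim probes, with only the groups compared or with a minimum log2 change of 1, and 0 to 1 with single arrays left out. The count lower in parental Capan-1, also 1, was 2 with quantile normalization or the 8-array filter, 0 with the minimum change, and 0 to 2 with single arrays left out. After siRNA the count lower in Capan-1 was 2 with only the groups compared, 0 with the minimum change and 0 to 1 with single arrays left out, and the count higher was 7 of 12 with the 8-array filter, which leaves fewer probes to test. MUC1 A_33_P3332215 changed sign in MIA PaCa-2 with normexp (0.061) and in Capan-1 with spike-in scaling (-0.078). The cause was not tested. Of uncalled siRNA differences, 24 of 239 alternative values changed sign for MIA PaCa-2, against 34 of 334 for Capan-1, so no direction is read from them. Scaling moved the median of all probes to -0.19 in MIA PaCa-2 without scaling and to -0.29 in Capan-1 with spike-ins.

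With normexp the parental difference was 4.46 for the downstream MUC4 probe, 2.78 for MUC20 and 2.03 for MUC13, all still called in limma. The replicate numbers did not pair the arrays: deviations of same-numbered arrays correlated from -0.09 to 0.19 between groups, with 1 of 6 pairs above 0.1. With the replicate block, 1 mucin probe was lower in MIA PaCa-2 after siRNA, and MUC5AC A_33_P3216570 between the lines after siRNA was no longer called (limma, adjusted p = 0.0515), while MUC6 A_33_P3304172 between the parental lines was (limma, adjusted p = 0.0433). The slide as a block could not be fitted between the lines, since by the array barcodes each line lay on its own slide, and within a line it adds nothing. The interval rule modelled on the study's methods called 75 probes lower and 45 higher in MIA PaCa-2, of which 1 was a mucin (MUC1 A_23_P137856, lower; the other MUC1 probe lay within its limit), and 216 lower and 284 higher in Capan-1, of which 0 were.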

Other observations

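One probe that carries no member's name, and so lies outside the rule, is described on the array as MUC5B but named ENST00000356191 (A_33_P3216568). Its level was -3.68 and -4.48 in siRNA-treated and -5.28 and -5.29 in parental MIA PaCa-2 cells, and -3.08 and -3.18 against -2.89 and -2.94 in Capan-1. It was well above background on 7 of the 8 arrays.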
